A study of Bos taurus with 43 samples.

Results

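The comparison set 5 commercial bulls of unknown treatment status (animals 263, 265, 266, 269 and 270) against 5 cross-breed control bulls (K7, K8, K10, K11 and K12), 10 of the 43 animals of the study. Both sides were chosen by where their arrays lay in the study's principal component analysis (PCA), which placed all 10 in 1 of its groups. They were therefore selected on the same array signals that are compared here, for lying in the same region, while the contrast between the 2 sides took no part in the choice.

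RNA of 1 piece of biceps brachii muscle per animal was labelled with a single dye and hybridized to a bovine oligonucleotide array with 21475 gene probes, 1 animal per array. The study asked whether muscle expression profiles of slaughtered beef cattle reveal illicit corticosteroid treatment. The other 33 animals were 16 further unknown bulls, 4 bulls suspected of corticosteroid treatment (called positive below), both of 12 to 24 months, and 13 male Holstein controls of 13 to 18 months. The 5 unknown animals were commercial males of 12 to 24 months sampled after slaughter, from a set of mostly Charolais, Limousine or crossed animals whose single breeds are not given in the sources used here, and dexamethasone was not detected in their urine. The 5 cross-breed controls were Charolais x Limousine bulls of 18 months from an earlier controlled experiment, kept without treatment. Farm, feed and transport of each animal are not given in the sources used here, and the origin of the animals and their treatment history cannot be told apart. Each animal was 1 sample, and the p-values measure the spread between animals within a side.

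Skeletal muscle holds slow fibres, which work by oxidation and fatigue slowly, and fast fibres, which rely more on glycogen, and each kind carries its own myosins, troponins and calcium pumps. Muscle also keeps the HOX genes, transcription factors that record position along the body and the limb, switched on in adult life according to where it formed. Immediate early genes are switched on within minutes by stress, stretch and excitation, and glucocorticoids raise a known set of genes that slow growth and shift fuel use. Albumin, fibrinogen and most other plasma proteins are made by the liver.

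In a PCA of all 43 arrays computed anew here, component 1 took 26.1% and component 2 took 20.4% of the variance. The members had been chosen from the study's own PCA of the same arrays, so that these scores are given as a description. On component 1, animals 263, 265, 269 and 270 scored from 95.4 to 105.1, animal 266 scored 38.3, and the 5 controls scored from 40.7 to 53.7. On component 2, the controls scored from 13 to 25.4 and the unknown animals -31.8, -18.3, -69.1, -36.8 and -32.5 in the order 263, 265, 266, 269 and 270. Animal 266 thus came near the controls on component 1 and lay farthest from them on component 2. The nearest of the 5 unknown animals to the centre of the controls was 265, at a distance of 61.3, and 8 other animals lay nearer, among them 38 (13.3), 37 (18.1), 49 (20.8) and 36 (24). In a PCA of the 10 arrays alone, component 1 took 55.7% of the variance, with scores of 55.3 to 74.6 in the unknown animals and -73.5 to -57.7 in the controls. Component 2 took 12.2% and held animal 266, at -83.7, apart from the other 9, which scored from -8.8 to 40.2.

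**Figure D1:**
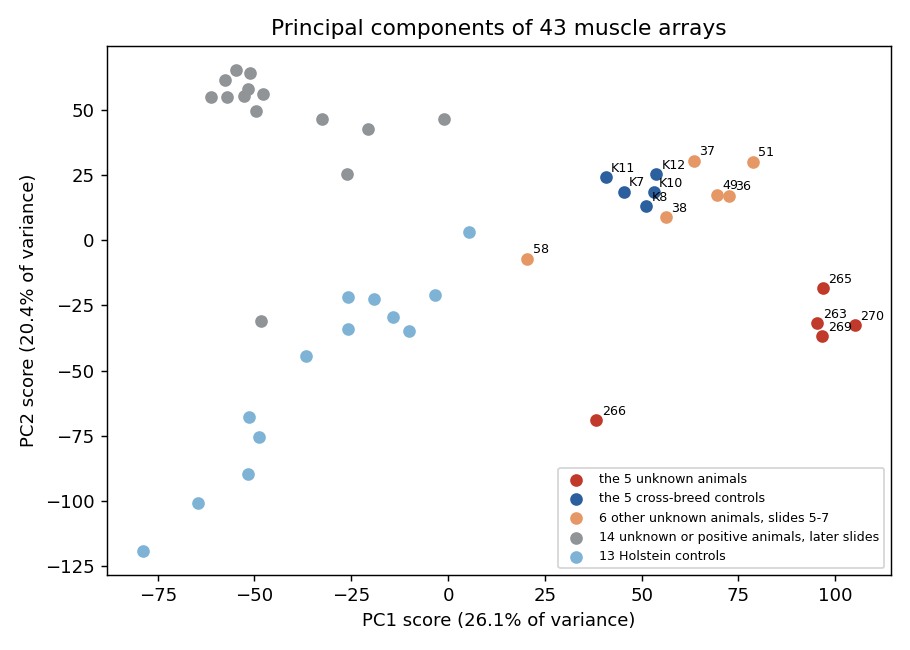
Scores of the 43 arrays in the PCA computed here, on the first component (x axis, 26.1% of the variance) and the second (y axis, 20.4%), 1 point per animal, coloured by group. Animals 263, 265, 269 and 270 sit at 95.4 to 105.1 on the first component, 266 sits at 38.3 and -69.1, and the animals nearest to the 5 controls are 6 other unknown animals, those on slides 5 to 7.

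The 2 sides shared no slide or scan. Animals 263, 265, 266 and 270 lay on slide 7 and animal 269 on slide 6, all scanned on the same day with the same scanner, while K7 and K8 lay on slide 1, K10 on slide 2, K11 on slide 3 and K12 on slide 4, scanned on 3 earlier days with 2 other scanners. No slide, scan day, scanner or version of the Feature Extraction software, which reads the scanned image, held animals of both sides, so that batch and side cannot be told apart in any result below. Another 6 unknown animals lay on slides 5 to 7, with 36 and 58 on slide 6 beside 269, and 37, 38, 49 and 51 on slide 5. Slide 5 held none of the 5 and was scanned on another day with the same scanner. Values of these 6 animals are given beside those results in which they are compared.

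Spike-in RNAs, which are added to every sample in the same amount and do not come from the animal, differed between the sides. The mean normalized log2 signal of the 7 brightest was 12.13, 12.06, 12.05, 11.80 and 11.98 in the 5 unknown animals and 12.96, 12.71, 12.79, 12.53 and 12.58 in the 5 controls. All 5 unknown animals lay below all 5 controls. The means were 12.01 ± 0.13 (SD, n = 5) and 12.71 ± 0.17 (SD, n = 5), a difference of -0.71 (p = 0.0079 by a two-sided exact permutation test, which allows no smaller value with 5 against 5). The difference was not the same for each RNA, from -1.93 for the one called E1A_r60_n9 to 0.04 for E1A_r60_1. The share of spots flagged by the software as well above background went the other way, at 71.8%, 71.5%, 79.2%, 73.4% and 69.7% in the unknown animals and at 62.9%, 66.6%, 67.1%, 65.7% and 73.6% in the controls. K12 was the single control within the range of the unknown animals (difference 5.9 percentage points, two-sided exact permutation test, p = 0.04). This p lay between 0.056 and 0.079 when any animal other than 270 and K12 was left out. The part of these technical differences in the gene results was not tested.

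A probe was called where limma gave an adjusted p under 0.05 and the difference was at least 2-fold. Of 16354 probes tested, 3552 (21.7%) were called. Of all probes tested, 1612 (9.86%) were called higher in the unknown animals and 1940 (11.9%) were called lower, so that 45.4% of the called probes were higher (Wilson 95% interval 43.8% to 47%, over probes, which are not independent). At 5323 probes (32.5%) the values of the 2 sides did not overlap. The median difference over all probes was 0.06 on the log2 scale. It became 0.14 with 75th percentile scaling, where 53.6% of the called probes were higher, and -0.74 without normalization between arrays, where 5.1% were, so that every direction below is relative to the bulk of the probes. In these bulk samples, fewer cells of a type and less RNA per cell cannot be told apart.

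Skeletal muscle markers were present in every sample. All 13 probes of skeletal muscle fibre genes were well above background on all 10 arrays, their summed log2 signal was 19.24 to 19.53 in the unknown animals and 19.36 to 20.09 in the controls, and myoglobin (MB), the oxygen store of muscle, was the brightest. Of these 13 probes 1 was called higher and 5 lower, against 21.7% called of all probes, with a median of -0.56. Of 5 heart muscle probes, those of the troponins TNNI3 (5.92 to 8.79 and 7.27 to 9) and TNNT2 were well above background on all 10 arrays, MYBPC3 on 5 of 10 and the hormones NPPA and NPPB on 1 each, and none was called. Of 4 kidney probes, 1 was at background throughout, none was well above background on all 10 arrays and none was called. Liver markers are given below. The transcription factors that set limb identity in the embryo could not be read as a check of the forelimb: TBX5, which marks the forelimb, was too dim to be tested (3.53 to 5.04 in the unknown animals, 3.15 to 4.69 in the controls), and PITX1, which marks the hindlimb, was well above background on all 10 arrays (6.74 to 8.04 and 6.25 to 7.60).

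The other 33 animals show how far the calls were particular to the 10. At 133 called probes all 5 unknown animals lay above the other 38 animals of the study and at 189 they lay below them. The 5 controls lay above all others at 147 called probes and below all others at 118. At 291 called probes all 11 animals of slides 5 to 7 lay below the other 32, and at 34 they lay above. The median of the 6 other unknown animals of slides 5 to 7 was nearer to the 5 unknown animals than to the controls at 1991 of the 3552 called probes (56.1%), against 1195 (33.6%) for the median of the 27 animals on later slides. For the median of the 13 Holstein controls alone, which are among those 27, the count was 1518 (42.7%).

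The genes with the largest rise were plasma proteins. Of the 11 genes described here as highest, 9 code for plasma proteins made mainly in the liver, and they were at or near background in the controls. FGG, the fibrinogen gamma chain, read 11.27, 13.89, 7.17, 14.01 and 14.07 in animals 263, 265, 266, 269 and 270, and 2.98, 2.81, 1.66, 4.63 and 0.76 in K7, K8, K10, K11 and K12, on the scale of normalized log2 signal (single animals are listed in these orders throughout). Animals 265, 269 and 270 were high, 263 lay between and 266 was lowest, still above every control. The log2 difference was 9.52 (SE 1.29, 732-fold, limma adjusted p = 0.000237), and only 1 of the 5 control arrays had a signal well above background. ORM1, the acute phase protein alpha-1 acid glycoprotein, read 10.32, 13.95, 10.68, 14.51 and 14.40 against 3.70, 4.02, 2.67, 2.98 and 3.44 (log2 difference 9.41, SE 0.84, 679-fold, limma adjusted p = 2.06e-05), with 1 control array well above background.

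ALB, albumin, read 8.77, 12.56, 5.77, 13.26 and 12.92 in the unknown animals and 2.59, 2.26, 2.40, 2.41 and 2.25 in the controls. The same 3 animals were again highest and 266 again lowest, and no control array was well above background. For probes below that level on all 5 arrays of the dimmer side, the fold is given as a bound, in which each dim value was raised to the lowest signal counted as well above background on its array. By it, ALB was at least 304-fold higher. Bounds of the same kind were at least 319-fold for GC, the vitamin D binding protein, at least 227-fold for the protease inhibitor SERPINA3 and at least 132-fold for the cell adhesion protein VTN. ALB and VTN passed the filter, which left out probes dim on at least 30 arrays, only through their high signal in the unknown animals. Their differences are therefore given as a description. The iron carrier TF was 328-fold higher, FGA, the fibrinogen alpha chain, 176-fold and the thrombin inhibitor SERPIND1 82.9-fold, each with 1 or 2 control arrays well above background. Within slide 6, ALB read 13.26 in animal 269, 9.76 in animal 36 and 1.84 in animal 58. Of the other 33 animals, 7 lay within the range of the unknown animals for ALB, among them 29, 52 and 39 of later slides (9.98, 9.25 and 8.64), and 18 did so for SERPINA3. The 13 Holstein controls read 1.99 to 3.08 for ALB but reached 10.22 for SERPIND1, 9.08 for TF, 8.51 for SERPINA3 and 7.92 for GC.

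**Figure D2:**
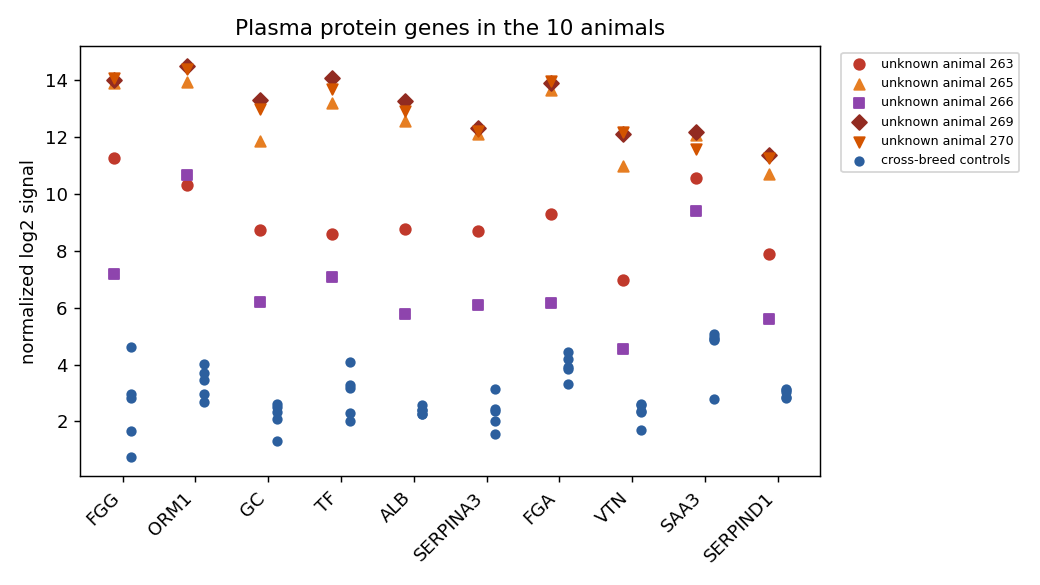
Normalized log2 signal (y axis) of the 10 genes described as highest other than PRM1 (x axis), with 1 point per animal, the unknown animals by their own symbols and the 5 cross-breed controls in blue. Animals 265, 269 and 270 are highest for nearly every gene and 266 lowest for most, and no unknown animal falls into the range of the controls.

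Liver markers as a list moved the same way. All 6 marker probes that could be tested were called higher, against 9.86% of all probes, with a median difference of 4.44, against 0.06 over all probes. Probes of this kind could pass the filter through their high signal in the unknown animals, as ALB did. The count and the median of this list are therefore a description, and the comparison with all probes is not a test. Their summed log2 signal, with 2 probes that were too dim to test included, was 11.41, 14.29, 10.69, 15.30 and 15.08 in the unknown animals and 9.62, 10.29, 8.81, 9.29 and 8.98 in the controls. TTR, the thyroid hormone carrier transthyretin, was the brightest of them, and no marker of the list was at background on all 10 arrays. The separation was not complete for all of them, since TTR in 266 (8.84) lay below K8 (9.33). Without K7 and K8 together, 4 of the 6 were called. Over the alternatives with normalization, including those that also tested the dim probes, 2 to 8 were called higher. The median difference stayed at 3.32 to 5.31. The part of RNA from other tissue in these levels was not tested.

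The other 2 of these genes were of another kind. SAA3, serum amyloid A3, an acute phase protein also made outside the liver, read 10.58, 12.09, 9.40, 12.19 and 11.60 against 4.91, 4.88, 4.97, 5.08 and 2.80 (log2 difference 6.64, SE 0.60, 99.9-fold, limma adjusted p = 2.14e-05). Both sides were well above background on every array and did not overlap, and the 13 Holstein controls ran from 5.76 to 11.10. PRM1, a protamine that packs DNA in sperm, read 10.39, 8.96, 15.50, 11.21 and 10.13 against 2.59, 2.31, 1.22, 2.09 and 1.79, at least 489-fold higher (limma adjusted p = 6.02e-05). Animal 266 was the highest here, and the Holstein controls, at 8.07 to 17.78, also lay far above the cross-breed controls.

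The largest falls were 2 HOX genes that in the embryo mark the middle and the far end of the limb. HOXA13 read 1.66, 1.64, 1.18, 1.61 and 1.76 in the unknown animals, where no array was well above background, and 8.72, 8.54, 10.26, 8.49 and 9.27 in the controls, at least 142-fold lower in the unknown animals (limma adjusted p = 5.18e-07). HOXA11 read 1.78, 2.59, 5.97, 1.86 and 2.22 against 10.31, 9.79, 11.80, 10.16 and 10.20 (log2 difference -7.57, SE 0.75, 190-fold, limma adjusted p = 3.63e-05). Animal 266 alone of the unknown side had a HOXA11 signal well above background. The 13 Holstein controls lay nearer to the cross-breed controls for both, with 7.05 to 9.58 for HOXA11 and 6.44 to 7.87 for HOXA13, and the 6 unknown animals of slides 5 to 7 nearer to the 5, with 1.42 to 4.36 and 1.41 to 2.39.

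Other HOX genes divided the animals differently. HOXA9 and HOXA10, neighbours of HOXA11 in the same cluster, were high on both sides and not called: HOXA10 read 10.63, 10.56, 10.35, 10.14 and 10.37 against 10.51, 10.28, 11.13, 10.50 and 10.82 (log2 difference -0.24, limma adjusted p = 0.302). In the 13 Holstein controls HOXA10 was 10.13 to 11.17, while it was 1.22 to 2.81 in the 6 unknown animals of slides 5 to 7 and 1.35 to 5.96 in the 14 unknown or positive animals on later slides. The brightest HOXA9 probe showed the same division, with 10.98 to 11.37 in the 5 unknown animals, 10.60 to 11.47 in the cross-breed controls, 10.30 to 11.67 in the Holsteins and at most 5.74 in the remaining 20 animals. Like all probes that passed the filter, both entered the PCA by which the 10 animals were chosen, so that this division is a description.

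Of the 41 limb position probes tested, 9 were called higher and 4 lower (31.7% in all, against 21.7% of all probes), with a median of 0.38, and without normalization between arrays 7 were higher and 12 lower, with a median of -0.27. HOXD9 read 13.62, 13.43, 13.66, 13.37 and 13.29 against 11.84, 11.86, 11.34, 11.35 and 12.36 (log2 difference 1.73, limma adjusted p = 9.74e-05), above all other 38 animals. Its other probe differed by 2.26. HOXC6 read 6.78, 8.20, 7.42, 7.77 and 8.01 against 4.33, 4.77, 3.46, 3.18 and 3.99 (log2 difference 3.69, limma adjusted p = 2.65e-05, 2 control arrays well above background), between the Holsteins, at 4.10 to 5.89, and the other unknown animals, of which those of slides 5 to 7 read 10.25 to 10.82. HOXC9 was at least 13.4-fold higher in the unknown animals, and HOXC8 was 11.6-fold higher at 1 of its 2 probes, with 3 control arrays well above background.

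MEIS1 and MEIS2, partners of HOX proteins that mark the part of the limb nearest the trunk, were both called higher. MEIS1 read 7.96, 8.02, 8.34, 8.08 and 8.32 against 4.86, 5.45, 4.88, 4.73 and 5.05 (log2 difference 3.15, limma adjusted p = 1.06e-06), and here the controls were the unusual side, since the other 33 animals read 6.19 to 8.43. MEIS2 differed by 2.84, with 1 control array well above background. TBX3, a factor of limb patterning, was lower by 2.24 on the log2 scale, with 4.22 to 5.55 against 6.57 to 7.70. HOXB2 was at least 5.6-fold lower and also low in the 6 other unknown animals of slides 5 to 7 (1.42 to 3.45, against 3.76 to 6.80 on later slides), and HOXB4 and HOXB6 were higher, by 2.57 and 1.61.

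**Figure D3:**
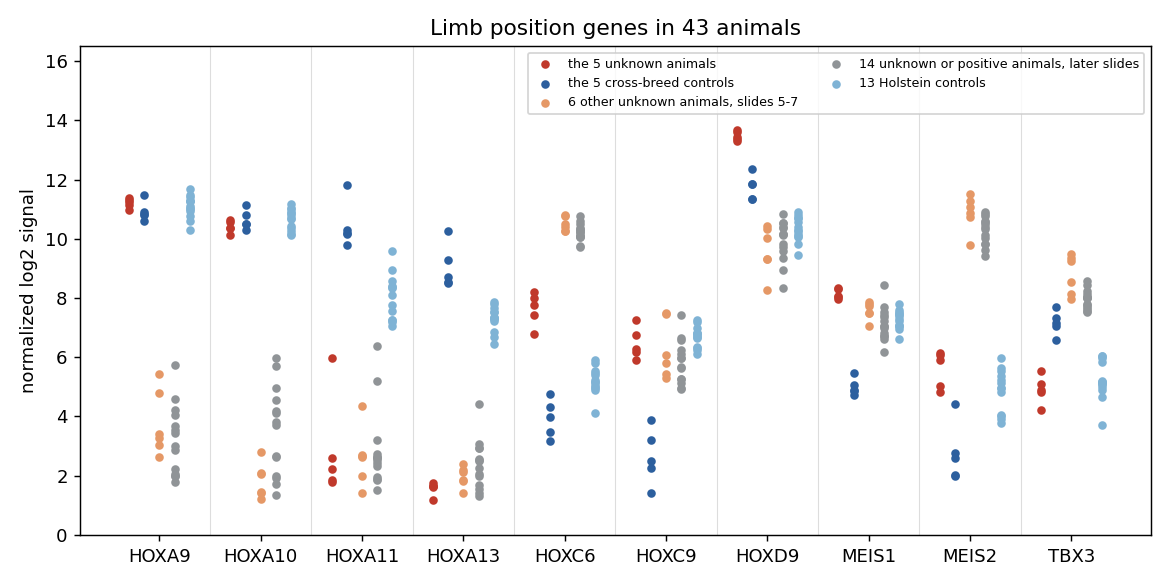
Normalized log2 signal (y axis) of 10 limb position genes (x axis) in all 43 animals, 1 point per animal, coloured by group. HOXA9 and HOXA10 are high in the 5 unknown animals, the cross-breed controls and the Holsteins, HOXA11 and HOXA13 are high in the cross-breed controls and the Holsteins only, and MEIS1 and HOXC9 are lowest in the cross-breed controls.

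Of the other 10 genes named as lowest, 7 were low in all animals of slides 5 to 7. LRP5, a receptor of the WNT pathway, read 1.46, 1.44, 1.57, 1.15 and 1.44 in the unknown animals against 7.82, 7.07, 7.56, 6.98 and 7.11, at least 41-fold lower (limma adjusted p = 8.1e-08). It was 2.30 to 3.87 in the 6 other unknown animals of those slides and 6.02 to 8.56 in the 27 animals on later slides. C22ORF5 (at least 42.8-fold), MARS1, which loads methionine onto its tRNA (at least 30.5-fold), the helicase gene FBH1 (at least 29.4-fold) and KREMEN1, a WNT inhibitor's receptor (at least 27.3-fold), followed the same division between slides 5 to 7 and the other slides, with no overlap. PPP1R15A, which reverses a stress block on translation, was 41.8-fold lower, with 2 arrays of the unknown animals well above background, and divided in nearly the same way, except that animal 265 (5.46) overlapped the later slides (5.26 to 9.29). CALCOCO1 was 30.5-fold lower, with 1 array of the unknown animals well above background, and was low in the 6 others too (1.98 to 2.45), but on later slides it spread from 1.69 to 6.89.

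The remaining 3 did not follow the slides in this way. MYH4, a fast myosin heavy chain, read 8.27, 8.61, 8.21, 9.31 and 8.55 against 14.49, 13.89, 13.25, 13.62 and 13.67 (log2 difference -5.19, SE 0.26, 36.6-fold, limma adjusted p = 8.97e-07). This probe was named by its array description alone, and whether it follows a fibre type in these animals was not tested. The 5 unknown animals were below all other 38, of which the 6 of slides 5 to 7 read 10.66 to 12.22. OTUD1, an enzyme that removes ubiquitin, was 64.2-fold lower (7.01 to 8.36 against 12.86 to 14.39). RSPO3, a secreted activator of WNT signalling, was 32.5-fold lower, with 2 arrays of the unknown animals well above background (3.18 to 5.12 against 8.32 to 9.63), while the 6 others of slides 5 to 7 read 6.65 to 9.47.

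**Figure D4:**
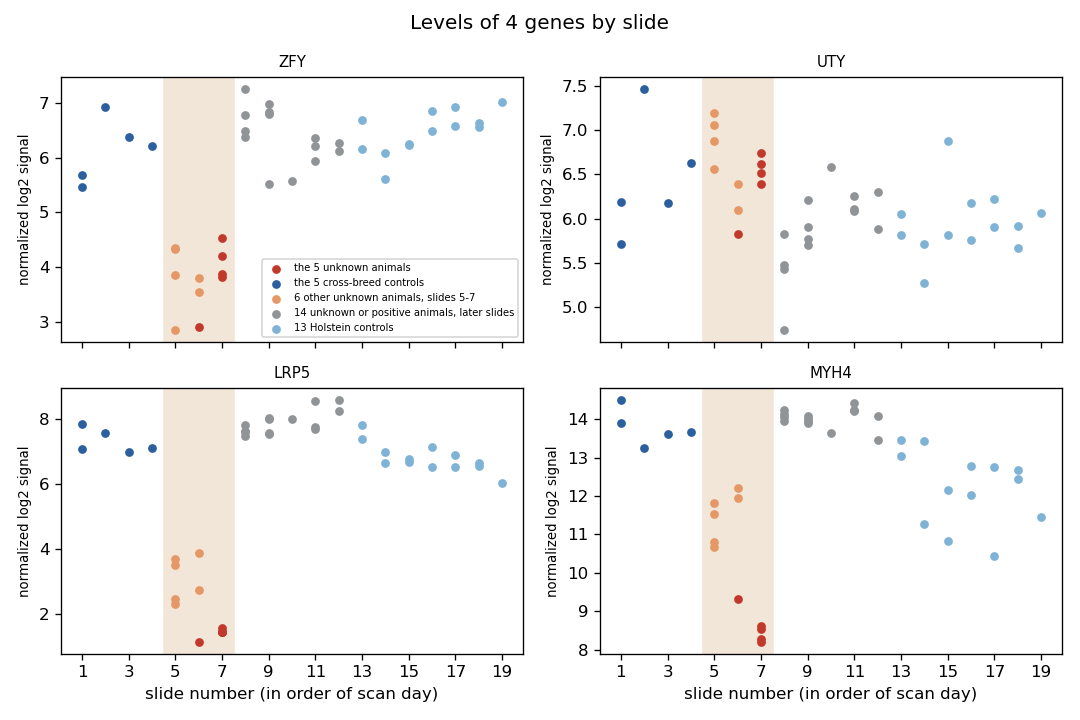
Normalized log2 signal (y axes) of ZFY, UTY, LRP5 and MYH4 by slide number (x axes, in order of scan day), 1 point per animal, with slides 5 to 7 shaded. ZFY and LRP5 are low in all 11 animals of the shaded slides, UTY is not, and MYH4 is lowest in the 5 unknown animals, below the other 6 of those slides.

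Of 16 slow fibre probes, 10 were called lower and 1 higher (68.8% in all, against 21.7% of all probes), and the median difference was -1.80, against 0.06 over all probes. MYBPC1, a myosin binding protein of slow fibres, read 12.84, 12.52, 12.67, 12.81 and 12.38 against 15.39, 15.22, 14.71, 14.86 and 14.66 (log2 difference -2.32, SE 0.18, limma adjusted p = 9.23e-06). TNNT1, slow troponin T, read 14.54, 15.13, 14.70, 15 and 15.05 against 17, 16.83, 16.49, 16.79 and 16.40 (log2 difference -1.82, limma adjusted p = 2.72e-05). Neither gene overlapped between the sides. Both also divided by slide: MYBPC1 was 12.56 to 13.34 in the 6 other unknown animals of slides 5 to 7 and 14.56 to 15.59 on later slides, and TNNT1 15.53 to 16.32 and 16.66 to 18.06. CASQ2, a calcium store protein of slow and heart muscle, fell most, by 3.71, but the Holsteins (4.45 to 8.87) spanned the unknown animals (6.36 to 7.87), and the slow calcium pump ATP2A2 was called lower at 1 of 2 probes, with a difference of -2.44.

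The slow myosin itself was not called. MYH7, the slow myosin heavy chain, differed by -0.42 (limma adjusted p = 0.099) and its partner TNNC1 by -0.10 (adjusted p = 0.682), both in values that overlapped. TNNC1 had spots at the upper limit of the scan (saturated) on 3 of the 5 control arrays and on no array of the unknown animals. A fall of TNNC1 could therefore be understated. MYL3, a slow myosin light chain, was the probe called higher, with 15.39, 16.11, 15.84, 16.57 and 16.74 against 15.34, 14.80, 14.57, 13.71 and 14.33 (log2 difference 1.58, limma adjusted p = 0.00309). It was higher in all 5 unknown animals than in any control, by 0.05 between 263 and K7, and it lost its call without normalization between arrays. Fast fibre genes had no common direction: of 17 probes, 2 were called higher and 3 lower (29.4% in all), with a median of -0.34. ACTN3, the actin crosslinker of fast fibres, was higher by 1.37 (16.88 to 17.79 against 15.65 to 16.46, limma adjusted p = 0.000397), and MYH1, a fast myosin heavy chain, was lower by 1.36 at 1 of its 2 probes. Energy enzymes were called at shares near or below the 21.7% of all probes: 4 of 28 probes for glycolysis and glycogen (14.3%), 8 of 66 for the respiratory chain (12.1%), 9 of 34 for fatty acid use (26.5%) and 4 of 18 for AMP and creatine enzymes (22.2%). The last count fell to 1 without 266, K8, or K7 and K8 together, and to 2 without 270 or K7.

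Of 32 immediate early probes, 20 were called lower and 2 higher (68.8% in all, against 21.7% of all probes), with a median of -1.25. FOS, a subunit of the AP-1 transcription factor, read 10.21, 10.38, 11.68, 11.07 and 11.08 against 15.77, 15.36, 14.62, 14.91 and 14.48 (log2 difference -4.14, SE 0.32, limma adjusted p = 1.05e-05). ATF3, a stress-induced factor, read 12.01, 12.17, 12.46, 11.65 and 11.92 against 16.97, 16.16, 15.79, 15.75 and 15.12 (log2 difference -3.91, limma adjusted p = 1.02e-05). The sides were separated by more than 2 log2 units for both genes. The nuclear receptors NR4A2 and NR4A3 fell by 4.70 and 4.69, the growth brake BTG2 by 4.53, JUN by 3.31 and EGR1 by 3.22.

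For FOS and ATF3 the 5 controls lay above all other 38 animals, and for JUN and BTG2 the 5 unknown animals lay below all other 38. The 13 Holsteins read 11.19 to 14.03 for FOS and 12.08 to 14.58 for ATF3, and the 6 unknown animals of slides 5 to 7 read 11.69 to 12.61 and 11.68 to 14.23, below every cross-breed control. The exceptions in the list were GADD45A, a growth arrest gene, higher by 2.71 (12.61 to 14.13 against 9.93 to 11.39), and SOCS3, a brake on cytokine signals, higher by 1.47. EGR1 overlapped between the sides, through K12 (10.55), and was not called without K7 and K8 together (-2.31). Without that pair of controls 15 of the list's probes were called lower.

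Heat shock and chaperone genes gave 6 lower and 0 higher calls among 32 probes (18.8% lower, against 11.9% called lower of all probes), with a median of -0.63. HSPA1A, the main inducible HSP70, read 12.29, 12.79, 11.89, 12.27 and 12.43 against 16.54, 15.38, 14.33, 15.17 and 14.57 (log2 difference -2.87, limma adjusted p = 0.000175). Another HSPA1A probe, brighter on every array, differed by -0.69 and was not called. Its constitutive relative HSPA8 was lower by 1.64 and the mitochondrial chaperone HSPD1 by 1.21. Circadian clock genes were called both ways, 3 higher and 4 lower of 20 (35% in all, against 21.7% of all probes): ARNTL, which drives the clock, was higher by 2.16 (8.49 to 10.36 against 6.37 to 8.09) and its opponent PER3 lower by 2.49 (1.90 to 4.76, well above background on 2 arrays, against 4.78 to 6.47).

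**Figure D5:**
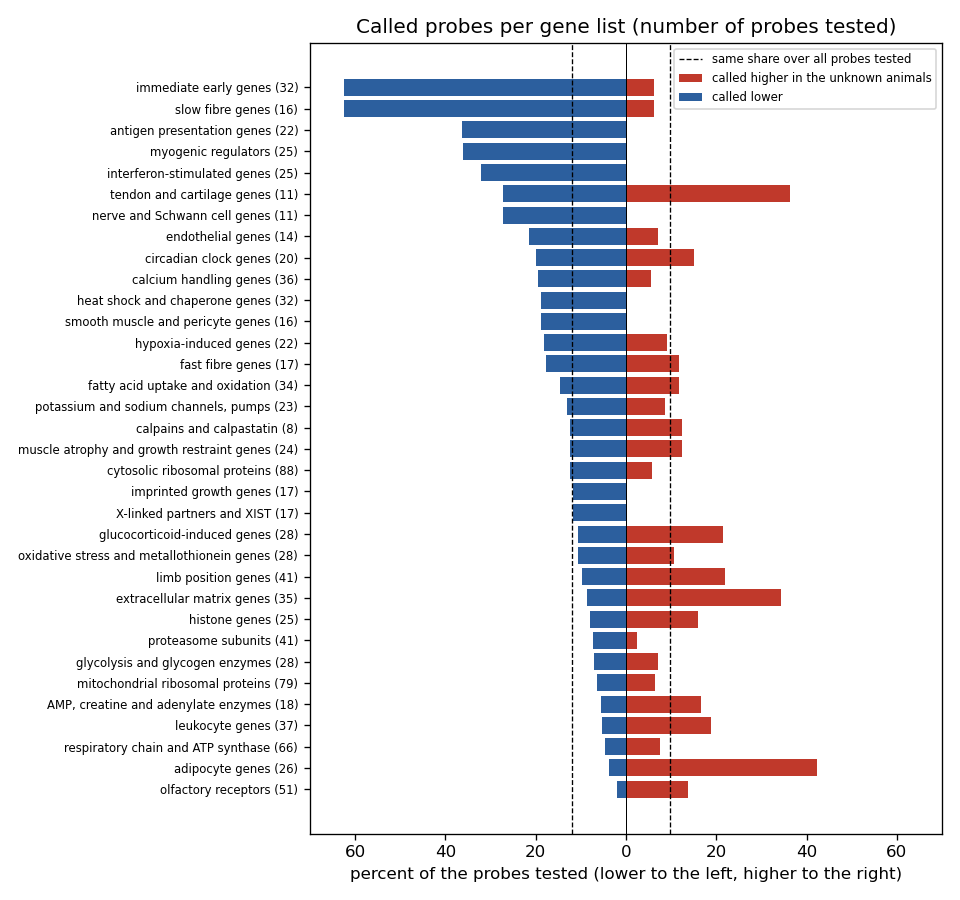
Share of tested probes called lower (blue, to the left) and higher (red, to the right) in the unknown animals for each gene list with at least 8 tested probes (number in brackets), on normalized values. Dashed lines mark the shares over all probes tested, 11.9% lower and 9.86% higher; immediate early and slow fibre genes reach farthest to the left, and adipocyte, tendon and extracellular matrix genes farthest to the right.

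Of 26 adipocyte probes, 11 were called higher and 1 lower (46.2% in all, against 21.7% of all probes), with a median of 0.29. Without normalization between arrays 4 were called higher and 7 lower, with a median of -0.41, where that of all probes was -0.74. FABP4, the fatty acid carrier of fat cells, read 7.97, 9.72, 9.35, 8.66 and 9.02 against 4.87, 6.44, 4.60, 5.18 and 1.75 (log2 difference 4.38, SE 0.72, limma adjusted p = 0.000755). The lipid droplet protein CIDEC was higher by 2.75 and PPARG, the regulator of fat cell formation, by 1.13. The summed log2 signal of the list was 17.05 to 17.47 in the unknown animals and 16.68 to 16.91 in the controls, its brightest gene was AGPAT2, and FABP4 was 6.79 to 12.97 in the 27 animals on later slides, so that here too the controls lay low.

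Of 35 extracellular matrix probes, 12 were called higher and 3 lower (42.9% in all, against 21.7% of all probes), with a median of 0.42, and without normalization between arrays 6 were higher and 9 lower, with a median of -0.46. The summed log2 signal of the list overlapped between the sides, at 16.17 to 17.49 in the unknown animals and 15.66 to 17.32 in the controls. LOX, which crosslinks collagen, read 9.19, 8.99, 10.34, 10.16 and 10.75 against 6.86, 8.17, 6.02, 6.41 and 6.01 (log2 difference 3.19, SE 0.46, limma adjusted p = 0.000358). LUM, a small collagen-binding proteoglycan, read 11.63, 10.29, 12.50, 12.55 and 13 against 7.26, 10.49, 8.45, 10.13 and 7.48 (log2 difference 3.23, limma adjusted p = 0.00417), with K8 above animal 265. K8 and K11 were the highest controls for LUM. The microfibril protein FBN1 and decorin (DCN) were higher at both of their probes, by 1.54 to 2.06 and 1.01 to 2.44, but 1 probe of each was borderline. The FBN1 probe with the difference of 1.54 (limma adjusted p = 0.0448) lost its call without 263, 266, 269, 270, K7, K10 or K12, and the DCN probe with that of 1.01 without 266, 269, 270, K7, K10 or K12. COL6A3, a chain of collagen VI, was the largest exception, lower by 2.55 (6.26 to 7.20 against 8.57 to 10.26), and low in all animals of slides 5 to 7, with 6.53 to 8.06 in the 6 others against 8.20 to 10.80 on later slides. Tendon and cartilage genes were called 4 higher and 3 lower of 11 probes (63.6% in all, against 21.7% of all probes), with a median of -1.17. These counts turned with single animals: 3 were higher and 5 lower without 266, 2 and 6 without K10, 2 and 3 without 269 and 3 and 4 without K11, while they were 3 and 1 without 265 and 2 and 2 without 270, K7 or K12.

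Of 37 leukocyte probes, 7 were called higher and 2 lower (24.3% in all, near the 21.7% of all probes), with a median of 0.46. Without normalization between arrays 3 were called higher and 5 lower, with a median of -0.33. CD163, a scavenger receptor of macrophages, read 10.00, 9.80, 10.49, 10.36 and 10.29 against 7.21, 8.93, 7.71, 8.62 and 6.44 (log2 difference 2.41, limma adjusted p = 0.00108). S100A8, a calcium-binding protein of neutrophils and monocytes, was higher by 2.24, with 1 control array well above background. CD3E, part of the T cell receptor, was lower by 1.59 (limma adjusted p = 0.0391), with values that overlapped, and lost its call without 263, 266, K7, K8, K10 or K11.

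Of 22 antigen presentation probes, 8 were called lower (36.4%, against 11.9% called lower of all probes) and none higher, with 5 lower without K7 and K8 together and a median of -1. JSP.1, a class I antigen of the cattle MHC, read 6.21, 5.56, 6.51, 7.35 and 6.64 against 10.22, 9.12, 9.08, 11.09 and 9.18 (log2 difference -3.29, limma adjusted p = 0.000216), but MHC genes are polymorphic and share sequence, and the allele each animal carries was not analysed here. Both peptide transporters, TAP1 and TAP2, were lower by 1.40. Of 25 interferon-stimulated probes, 8 were called lower (32%, against 11.9% called lower of all probes) and none higher, with a median of -0.58. Over the alternatives with normalization 3 to 9 were called lower. The difference was above 0 at 6 of the 25 probes, among them IFIT5 (0.90, without overlap) and MX2 (0.66), both under 2-fold. MX1 differed by -0.28 and was not called. ISG15, a ubiquitin-like protein, read 7.28, 5.97, 6.98, 9.70 and 9.11 against 12.52, 10.11, 11.22, 10.90 and 9.71 (log2 difference -3.09, limma adjusted p = 0.00632), and animals 269 and 270 came closest to the controls. GBP4, a guanylate-binding protein, read 3.19, 1.60, 4.87, 6.39 and 5.77 against 8.87, 7.79, 7.77, 7.82 and 7.32, with the same 2 animals highest and 3 of the 5 well above background.

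Genes that glucocorticoids induce bear on the question of the study, and they had no common direction. Of 28 probes, 6 were called higher and 3 lower (32.1%, against 21.7% of all probes). The calls were 3 and 2 without K7 and K8 together, and 3 and 9 without normalization between arrays. The median was 0.11 and ran from -0.03 to 0.25 over the alternatives with normalization. ANGPTL4, an inhibitor of lipoprotein lipase, read 11.22, 11.66, 12.24, 11.81 and 11.85 against 7.78, 7.82, 6.20, 6.65 and 8.01 (log2 difference 4.47, SE 0.36, limma adjusted p = 1.19e-05). The controls were the low side, since the other 33 animals read 9.13 to 14.05. PDK4, which holds back glucose oxidation, read 14.13, 14.16, 13.27, 11.70 and 12.10 against 10.37, 10.63, 11.30, 11.38 and 11.66 (log2 difference 2, limma adjusted p = 0.00752), high in 263, 265 and 266 and near the controls in 269 and 270, and was not called without K7 and K8 together (1.63).

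FKBP5, a chaperone of the glucocorticoid receptor and a much used sign of its activity, followed PDK4, with 13.42, 13.52, 13.14, 11.57 and 11.33 against 10.89, 11.64, 11.53, 10.66 and 11.20. Its difference of 1.41 (limma adjusted p = 0.0253) lost its call without 263, 265, 266, K7 or K11, at 1.18 to 1.34, and the sides overlapped. KLF15, a glucocorticoid-induced factor, went the other way, at least 10.7-fold lower, with no array of the unknown animals well above background. It was low in the 6 others of slides 5 to 7 as well (1.97 to 4.06), against 3.71 to 8.60 on later slides. The receptor gene NR3C1 itself differed by 0.33 (limma adjusted p = 0.474).

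Of 24 atrophy and growth restraint probes, 3 were called higher and 3 lower (25% in all, near the 21.7% of all probes), with a median of 0.02. FBXO32, the ubiquitin ligase atrogin-1, read 12.74, 13.05, 13.67, 13.15 and 12.57 against 14.78, 15.11, 14.11, 14.69 and 14.96 (log2 difference -1.69, limma adjusted p = 0.000337), and the other muscle ligase, TRIM63, differed by 0.41 (adjusted p = 0.235). MSTN, myostatin, which limits muscle mass, was lower by 1.38 (limma adjusted p = 0.0275) and lost its call without 263, 265, 266, K10 or K12. Of 25 probes of myogenic regulators, 9 were called lower (36%, against 11.9% called lower of all probes) and 0 higher, with a median of -0.54. Over the alternatives with normalization 2 to 10 were called lower. Among those called lower were MYF6, a factor of mature fibres, by 1.29, and the transcription factor TEAD1 by 2.02 at 1 of its 3 probes. That probe was low in all animals of slides 5 to 7 (6.69 to 8.31 in the 6 others, against 8.45 to 10.04 on later slides).

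UCP3, a mitochondrial carrier that rises with fatty acid supply, gave a further large difference: 14.54, 14.49, 14.47, 13.54 and 13.50 against 9.91, 10.44, 10.19, 9.20 and 11.02 (log2 difference 3.95, SE 0.35, limma adjusted p = 1.91e-05). The 6 other unknown animals of slides 5 to 7 read 7.78 to 10.84, within or below the controls, and the Holsteins read 12.33 to 14.54. CA3, carbonic anhydrase 3, abundant in slow fibres, read 11.86, 12.17, 11.35, 11.64 and 11.23 against 14.70, 14.49, 14.08, 14.22 and 14.07 (log2 difference -2.66, limma adjusted p = 1.02e-05). It was low in all animals of slides 5 to 7 (the 6 others read 11.97 to 12.73) and 15.38 to 16.14 in the 27 on later slides. In the list of oxidative stress and metallothionein genes to which it belongs, 3 of 28 probes were called higher and 3 lower (21.4% in all, near the 21.7% of all probes), among them the glutathione peroxidase GPX3, higher by 2.40, and the metallothionein MT1A, higher by 3.19 with 1 control array well above background.

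Calcium handling genes gave 2 higher and 7 lower calls of 36, hypoxia-induced genes 2 and 4 of 22, and channels and pumps 2 and 3 of 23 (25%, 27.3% and 21.7% in all, near the 21.7% of all probes). Imprinted growth genes gave 0 higher and 2 lower of 17 (11.8%), the growth regulator DLK1 by 1.77 and the noncoding RNA H19 by 1.27. H19 overlapped between the sides and was not called without K7 and K8 together (-0.90). DLK1 was low in all animals of slides 5 to 7, with 13.55 to 14.47 in the 6 others against 14.93 to 16.22 on later slides. Among nerve and Schwann cell genes, 0 of 11 were called higher and 3 lower (27.3% in all).

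Endothelial genes gave 1 higher and 3 lower of 14 (28.6% in all, against 21.7% of all probes), smooth muscle and pericyte genes 0 and 3 of 16 (18.8%), and erythrocyte genes 0 and 0 of 4 (0%). Histone genes gave 4 and 2 of 25 (24%) and olfactory receptors 7 and 1 of 51 (15.7%). Calpains with calpastatin gave 1 and 1 of 8 (25%, and 1 call in all without 263, 265, 270, K8, K10 or K12). Proteasome subunits gave 1 and 3 of 41 (9.76%), and 3 and 3 without 266. Of 79 mitochondrial ribosomal protein probes, 5 were called higher and 5 lower (12.7% in all). Of 88 cytosolic ribosomal protein probes, 5 were called higher and 11 lower (18.2% in all, below the 21.7% of all probes), and RPL34, lower by 2.77, was low in the 6 other unknown animals of slides 5 to 7 too (8.34 to 9.42) against 12.66 to 13.81 on later slides.

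All 43 animals were male, and 1 of the Y-linked genes divided by slide as well. ZFY, a zinc finger gene of the Y chromosome, read 3.81, 4.53, 4.20, 2.90 and 3.87 in the unknown animals and 5.47, 5.69, 6.93, 6.38 and 6.21 in the controls (log2 difference -2.27, SE 0.34, limma adjusted p = 0.000419). It was 2.84 to 4.34 in the 6 other unknown animals of slides 5 to 7 and 5.52 to 7.26 in the 27 animals on later slides, so that the 11 animals of those 3 slides did not overlap with the other 32. UTY, another gene of the Y chromosome, read 6.61, 6.39, 6.51, 5.83 and 6.74 against 6.19, 5.71, 7.46, 6.17 and 6.63 (log2 difference -0.02, limma adjusted p = 0.968). TSPY was not called, and SRY and AMELY were too dim to be tested. Of 17 probes of X-linked partner genes, 0 were called higher and 2 lower (11.8% in all, below the 21.7% of all probes), with a median of -0.04. Without 270, K7 or K8 these counts were 1 and 3, without 266 1 and 1, and without K11 0 and 1. They were 2 and 3 without K7 and K8 together. In all, 442 of the 16354 tested probes separated the 11 animals of slides 5 to 7 from the other 32 without overlap.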

How the data were processed

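Muscle RNA of 43 animals was hybridized to 1-colour 4x44K bovine arrays. Per the file headers, the deposited spot intensities (gProcessedSignal) were extracted by the authors with Agilent software, background-subtracted and on a linear scale. Here their log2 values were normalized over the 43 arrays by cyclic loess (limma 3.58.1 in R 4.3.3, as the study's methods name), outlier spots were left out and spots of 1 probe averaged. The deposited matrix of log2 values served as an alternative. Of 21475 probes, 5121 with a log2 signal under 4 on at least 30 arrays were left out, and 16354 were compared, 5 animals against 5, with limma and Benjamini-Hochberg adjustment. Calls needed an adjusted p under 0.05 and 2-fold. The precision is limited by the number of arrays.

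The members and gene lists were chosen with earlier results of these data known. In each direction the text names the 12 genes with the largest difference among called probes without overlap that were well above background on the brighter side, and called genes of 36 gene lists with uncalled examples. Some genes that this rule selects are not reported here. Probes were named by accession (3504), gene ID (9610), array description (4252) or array name (4109), with RefSeq names where these matched. Other tools were Python 3.11.15, numpy 2.4.6, pandas 2.3.3, scipy 1.17.1 and matplotlib 3.10.9. Tested on simulated data of 16352 probes for this comparison, the fit called 31 of 50 probes shifted by 1.5 on the log2 scale and 45 of 50 shifted by 2. Alternatives were other normalizations, background correction, filters, models, the SAM statistic named in the study's methods, and leaving out each animal. Leaving out K7 and K8 together was chosen after seeing the data.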

Additional observations from a re-analysis of the deposited data

Results flagged for a closer look

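Of 160 groups of 5 values checked (a gene on 1 side), 6 held an animal far from the other 4 of its side, its gap to the nearest being over 0.71 of the range. Chance flags about 1 in 20 groups. Animal 266 stood apart for HOXA11, at 5.97, and for HOXA13, at 1.18, where no array of its side was well above background. K10 was the highest control for HOXA11, at 11.80. K12 was the lowest control for SAA3, at 2.80. K11 was the lowest control for NR4A2, at 11.38. Animal 265 was the highest unknown animal for KLF15, at 3.19, where no array of its side was well above background either.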

How the results depend on the processing

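The 3552 called probes became 6147 without normalization between arrays, 1629 with normexp background correction, 1835 with the SAM statistic and 7445 with no limit on the fold change; the cause was not tested, apart from the last, which drops a criterion. All other alternatives gave 3216 to 3891, and leaving out 1 animal gave 3432 to 3606. Without K7 and K8 together 3476 were called, 3027 of them among the 3552. The spike-in difference kept its direction and the smallest exact p throughout, and grew from -0.71 to -1.62 without normalization. The difference in spots well above background ran from 4.43 to 7.56 percentage points when 1 animal was left out. No single probe followed here changed sign while called. Without normalization the balance of calls turned from higher to lower for the adipocyte, extracellular matrix, leukocyte, limb position and glucocorticoid lists, among others; there 5.1% of all calls were higher. No paired analysis was possible because the replicate numbers were given in accession order and pair no animals. A value within a slide, scan day, scanner or Feature Extraction version could not be had, since none held both sides; as random blocks, slide (3383 calls) and scan day (3449) do not remove that. Spots not well above background limit what can be said of dim probes: folds are bounds where no array of a side was well above background, and depend on background values where some were not.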
